A study of Mus musculus with 22 samples.

Results

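The genes described here encode subunits of the ionotropic glutamate receptors, the metabotropic glutamate receptors and the Slc1a uptake transporters. They were taken by symbol from a list of names, and all 28 were found among the 23119 genes of the count table. They comprise 4 AMPA receptor genes (Gria1 to Gria4), 5 kainate receptor genes (Grik1 to Grik5), 7 NMDA receptor genes (Grin1, Grin2a to Grin2d, Grin3a and Grin3b), 7 metabotropic receptor genes (Grm2 to Grm8), the delta receptor gene Grid1, and 4 transporter genes (Slc1a1 to Slc1a4). In every comparison 27 of the 28 had enough counts to be tested. Grm6, a metabotropic receptor known from bipolar cells of the retina, was the exception, with 1 and 2 counts in a pair of oxycodone ventral libraries and 0 counts in each of the other 20 libraries.

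RNA was sequenced from bulk striatum of adult male C57BL/6J mice that had taken oxycodone, an opioid analgesic, by self-administration at 0.25 mg/kg per infusion, 4 h daily over 14 days, or had received saline in yoked sessions of the same length and number. The groups were oxycodone dorsal striatum (5 libraries), saline dorsal striatum (5), oxycodone ventral striatum (6) and saline ventral striatum (6). The saline mice were yoked, so saline was delivered to them without their own control over it, and no group without infusions was used here. The labels do not tie libraries to animals, so p values measure the spread between these libraries.

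Glutamate is the main excitatory transmitter of the brain, and the striatum receives it from cortex, thalamus, amygdala and hippocampus. AMPA receptors carry most of the fast current, NMDA receptors admit calcium when the cell is depolarised, and kainate receptors act on both sides of the synapse. Metabotropic receptors work through G proteins: Grm5 couples to Gq and calcium release, and the other metabotropic genes listed couple to Gi and lower cAMP. Of the Slc1a transporters, Slc1a1, Slc1a2 and Slc1a3 of astrocytes and neurons clear glutamate from the extracellular space. Plasticity of glutamate synapses on medium spiny neurons, the projection neurons of the striatum, is widely studied in models of opioid taking.

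Library totals ran from 11314079 to 21921963 counts in dorsal striatum and from 8408829 to 11000345 in ventral striatum. The dorsal and ventral libraries differed in more than their tissue. Of the counts between 1 and 20, 71.8% to 78.7% were even numbers in dorsal libraries and 42.0% to 44.5% in ventral libraries, and only the ventral libraries carry lane numbers 1 and 2. Region and whatever gave the dorsal counts this pattern cannot be told apart in any dorsal against ventral value below. In bulk tissue, fewer cells of a type and less RNA per cell cannot be told apart either.

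Markers of medium spiny neurons set the sixth library of each ventral group apart from the rest of its group. In saline ventral replicate 6 the 12 markers averaged 4.27 log2 CPM (CPM being the count relative to the total of its library), against 7.64 to 8.00 in the other 5 saline ventral libraries, and 10 markers of glutamatergic neurons averaged 6.22, against 2.47 to 3.91. Oxycodone ventral replicate 6 stood at 8.68 for medium spiny neurons, against 7.70 to 8.07 in the other 5 of its group, inside the range of the dorsal libraries (8.54 to 8.74). Its choroid plexus and ependyma markers averaged 4.35 log2 CPM, against 0.40 to 1.28. Both libraries stayed in the comparisons as designed, and ventral values without them are given beside those that moved most.

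Levels were compared between genes as CPM, scaled between libraries by TMM factors, per kb of annotated exon (CPM per kb). The exon length joins all annotated exons of a gene, and the order of genes depends on it. By CPM alone, Gria2 stood above Gria1 and Grm5 above Grm3 in every group. The highest levels per kb belonged to Gria1, the GluA1 subunit, to Grm3, an mGlu3 receptor of neurons and astrocytes, and to Slc1a2. Slc1a2 is the GLT-1 transporter that carries most glutamate uptake in forebrain astrocytes. Gria1 averaged 128 ± 3.75 CPM per kb in oxycodone dorsal striatum, 119.8 ± 7.6 in saline dorsal, 116 ± 8.61 in oxycodone ventral and 111 ± 20 in saline ventral striatum (SD, n = 5, 5, 6 and 6). Grm3 averaged 109.7 ± 5.75, 120.3 ± 9.67, 105 ± 4.91 and 103 ± 5.63 CPM per kb in the same order of groups, so that Gria1 and Grm3 lay within each other's spread in saline dorsal striatum. Slc1a2 averaged 95.6 ± 7.61, 94.6 ± 11.1, 99.7 ± 5.92 and 96.4 ± 14 CPM per kb.

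Behind these 3 came Grm5, Gria2, Slc1a3, Grin1, Grik5 and Grm7, with group means between 36 and 83.9 CPM per kb. Gria2 encodes the AMPA subunit that makes the channel impermeable to calcium, Slc1a3 the GLAST transporter of astrocytes, Grin1 the obligatory NMDA subunit and Grik5 a kainate subunit that needs a partner to form a channel. Grin2b, Gria3, Grid1, Grik2 and Gria4 had group means of 19.4 to 32.4 CPM per kb. At the low end, Grin2d, Grin3b, Grm2 and dorsal Grik1 had group means of 0.487 to 2.89 CPM per kb, the highest of these being saline ventral Grm2, whose mean rests on replicate 6. Grm6 averaged 0.0098 CPM per kb in oxycodone ventral striatum and was at 0 in the other 3 groups. The floor that 3 counts set was 0.137 to 0.265 CPM in dorsal and 0.273 to 0.357 CPM in ventral libraries, for counting error only.

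**Figure D1:**
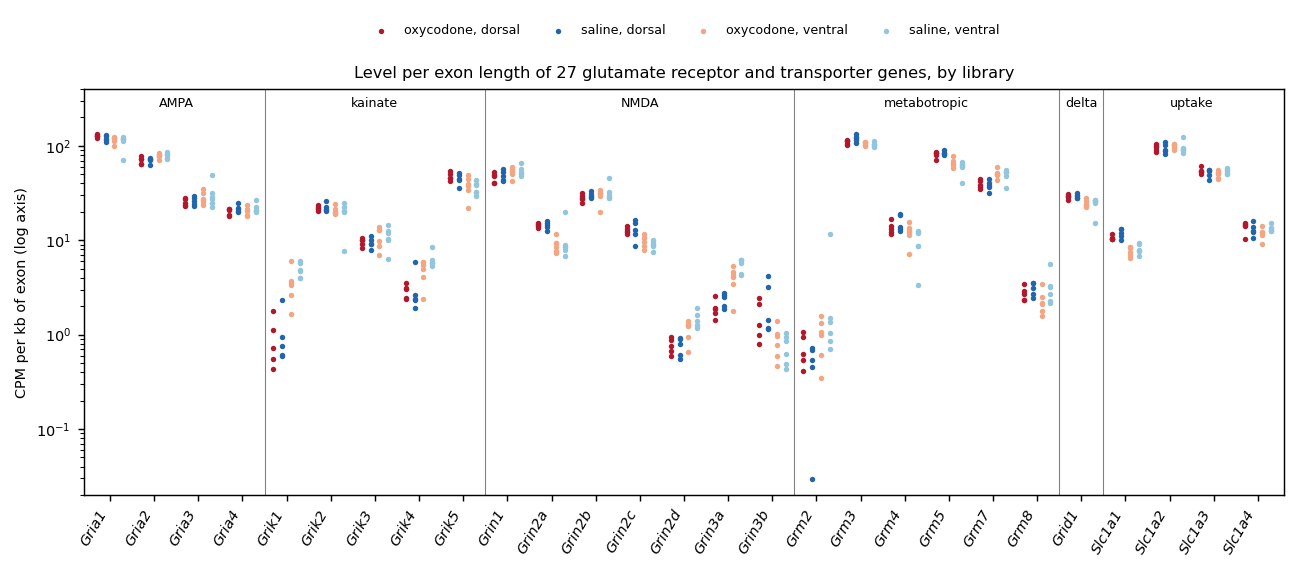
Level of 27 glutamate receptor and transporter genes in each of 22 libraries, in CPM per kb of exon on a log axis, grouped by receptor class, with the groups from left to right oxycodone dorsal, saline dorsal, oxycodone ventral and saline ventral. Gria1, Grm3 and Slc1a2 sit highest in all 4 groups, and 1 saline ventral library (replicate 6) leaves its group for Gria1, Grik2, Grin2a and Grm2; Grm6 is not drawn.

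The oxycodone comparison asked whether receptor and transporter transcripts differed between mice that took oxycodone and yoked saline mice. No glutamate receptor or transporter gene passed an edgeR adjusted p of 0.05 in either region. In ventral striatum 0 of 14116 genes passed (0%), and 0 of the 27 tested members. An unadjusted p under 0.05 was reached by 1289 genes (9.13%) and by 2 of the 27 members, Grin3a and Grm2. DESeq2 called 38 genes (0.269%) and limma-voom 61 (0.432%), with 0 members in each. In dorsal striatum 30 of 14595 genes passed (0.206%), 0 of them members, and 0 of 27 members had an unadjusted p under 0.05, against 823 genes (5.64%). DESeq2 called 86 dorsal genes (0.589%) and limma-voom 32 (0.219%), again with 0 members.

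The sizes of the fitted changes were small for most members. In dorsal striatum the members' log2 changes, oxycodone over saline, ran from -0.52 to 0.56 with a median of -0.03, beside a median of -0.01 over all genes. For 22 of the 27 the 95% interval of the dorsal change lay within 1.5-fold either way (0.585 on the log2 scale). The other 5 were Grik1, Grin2d, Grin3a, Grin3b and Grm2, all genes at the low end of the levels. In ventral striatum the changes ran from -1.56 to 0.36 with a median of -0.03, and 18 of 27 intervals lay within 1.5-fold. With both sixth libraries left out the ventral changes ran from -0.43 to 0.19, and 22 of 27 intervals lay within 1.5-fold. For all 27 members oxycodone and saline libraries overlapped in both regions. Over all genes, groups without overlap made up 0.843% higher and 0.459% lower in dorsal striatum, and 0.312% higher and 0.446% lower in ventral striatum.

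Among the AMPA receptor genes, Gria1 had 766, 779, 772, 802 and 739 CPM in the 5 oxycodone dorsal libraries, against 704, 664, 777, 763 and 712 CPM in the 5 saline dorsal libraries. The groups overlapped between 739 and 777 CPM, with 3 saline libraries below every oxycodone library, and the dorsal log2 change was 0.09 (SE 0.06, edgeR adjusted p 0.99). In ventral striatum Gria1 ranged from 606 to 749 CPM with a median of 718 in oxycodone libraries, against 428 to 756 CPM with a median of 715 in saline libraries. The lowest saline value was replicate 6, the next being 687 CPM, and the ventral log2 change was 0.07 with all libraries and -0.03 without both sixth libraries. Gria2, Gria3 and Gria4 had log2 changes of -0.11 to -0.01 in dorsal striatum and of -0.11 to -0.01 in ventral striatum. Gria3, at 483 CPM in saline ventral replicate 6 against at most 313 in the other 5, had a ventral change of -0.11 with all libraries and 0.08 without both sixth libraries.

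The NMDA subunit Grin3a had the lowest unadjusted p of the members in both regions. Grin3a encodes a GluN3A subunit that lowers the calcium permeability and magnesium block of NMDA receptors. It had 17.5, 31.4, 23.1, 20.8 and 23.5 CPM in oxycodone dorsal libraries, against 34.3, 31, 24.9, 32.6 and 23.2 CPM in saline dorsal libraries. In ventral striatum it ranged from 22 to 64.9 CPM with a median of 51.5 in oxycodone libraries, against 53.3 to 76.8 CPM with a median of 73.5 in saline libraries. Oxycodone libraries lay on the lower side in both regions, with overlap in both. The log2 change was -0.32 in dorsal striatum (SE 0.17, p 0.0613, edgeR adjusted p 0.902) and -0.49 in ventral striatum (SE 0.20, p 0.0323, edgeR adjusted p 0.514). The lowest ventral value was oxycodone replicate 6, and without both sixth libraries the ventral change was -0.41 (SE 0.12, p 0.00406, edgeR adjusted p 0.268).

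Markers of septal, preoptic and pallidal neurons are given beside Grin3a, with 0 of the 5 tested passing between oxycodone and saline ventral libraries. They averaged 1.76 log2 CPM in oxycodone ventral libraries (1.22 to 2.70) and 2.06 in saline ventral libraries (0.60 to 2.56), and 1.86 and 2.35 without both sixth libraries, with overlap. Their part in the Grin3a values was not tested. Grin3a was also among the members with the clearest difference between regions, described further on.

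The other NMDA subunits had log2 changes between -0.52 and 0.02 in dorsal striatum and between -0.35 and 0.28 in ventral striatum, or between -0.25 and 0.17 without both sixth libraries. Grin1 averaged 447 ± 54.1 CPM in oxycodone dorsal and 474 ± 58.2 CPM in saline dorsal libraries (SD, n = 5 each), and 513 ± 59.7 and 527 ± 62.7 CPM in oxycodone ventral and saline ventral libraries (SD, n = 6 each). Grin2a, the GluN2A subunit typical of mature synapses, had a dorsal change of 0.00 (95% interval -0.15 to 0.16). Its ventral change was -0.15 with all libraries and 0.17 without both sixth libraries, since saline ventral replicate 6 held 358 CPM, against 123 to 160.1 CPM in the other 5. Grin2b, the GluN2B subunit, had 500.1 CPM in oxycodone ventral replicate 1, against 728 to 836 CPM in the other 5 oxycodone ventral libraries, and a ventral change of -0.12 (SE 0.15) with all libraries and of -0.05 without both sixth libraries, saline replicate 6 holding 1131 CPM. Grin3b, the rarer GluN3B subunit, had the widest dorsal interval of the NMDA genes, -1.30 to 0.27 around a change of -0.52, with 2.65 to 8.1 CPM in oxycodone and 3.81 to 13.7 CPM in saline dorsal libraries.

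Kainate receptor genes did not pass either. Grik1, the GluK1 subunit, ranged from 11.2 to 40.2 CPM with a median of 23.1 in oxycodone ventral libraries, against 26.6 to 41 CPM with a median of 32.3 in saline ventral libraries. The groups overlapped, and the log2 change was -0.48 (SE 0.23, edgeR adjusted p 0.564), or -0.40 without both sixth libraries. Grik4, the GluK4 subunit, had a ventral change of -0.38 (SE 0.20) with all libraries and of -0.14 (SE 0.10) without both sixth libraries, where oxycodone replicate 6 held 14.1 CPM and saline replicate 6 held 51.2 CPM, the lowest and the highest ventral values. In dorsal striatum the 5 kainate genes had changes of -0.17 to 0.09.

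Among the metabotropic receptor genes, the ventral value of Grm2 rested on 1 library. Grm2, an mGlu2 autoreceptor of glutamate terminals, had 1.72 to 7.79 CPM in the 6 oxycodone ventral libraries, against 57.9 CPM in saline ventral replicate 6 and 3.46 to 7.34 CPM in the other 5 saline ventral libraries. Its ventral log2 change was -1.56 (SE 0.72, p 0.0499, edgeR adjusted p 0.547) with all libraries and 0.03 (SE 0.26) without both sixth libraries. Markers of glutamatergic neurons were highest in the same library, at 6.22 log2 CPM, and their part in its Grm2 level was not tested.

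Grm8, the mGlu8 receptor of axon terminals, ranged from 15.4 to 34.1 CPM with a median of 21.3 in oxycodone ventral libraries, against 21.2 to 55.9 CPM with a median of 29.4 in saline ventral libraries. Its ventral change was -0.50 (SE 0.25, edgeR adjusted p 0.574), and -0.43 (SE 0.15, p 0.0122, edgeR adjusted p 0.348) without both sixth libraries, each of which was the highest of its group. Grm5, Grm3 and Grm7 had changes of -0.13 to 0.04 in dorsal striatum and of 0.03 to 0.17 in ventral striatum. The highest of these was that of Grm5, which had 0.17 with all libraries and 0.02 without both sixth libraries. Grm4, an mGlu4 receptor of terminals, had a ventral change of 0.36 (SE 0.27), and 0.19 without both sixth libraries.

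The delta receptor gene Grid1 had changes of -0.02 in dorsal and 0.03 in ventral striatum, the ventral one being -0.06 without both sixth libraries. For the transporters, Slc1a2 had 1118, 1196, 1296, 1293 and 1376 CPM in oxycodone dorsal libraries, against 1081, 1201, 1451, 1325 and 1155 CPM in saline dorsal libraries, a log2 change of 0.02 (95% interval -0.14 to 0.17). The ventral change of Slc1a2 was 0.06 (95% interval -0.15 to 0.26), from 1188 to 1397 CPM in oxycodone and 1114 to 1627 CPM in saline libraries, and 0.12 without both sixth libraries. Slc1a3 had changes of 0.08 in dorsal and -0.10 in ventral striatum. Slc1a1, the neuronal transporter EAAC1, had -0.15 and -0.07, and Slc1a4, which carries neutral amino acids and not glutamate, had 0.08 and -0.17, the ventral change being -0.06 without both sixth libraries. Every interval of these 4 genes in the separate regions lay within 1.5-fold.

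**Figure D2:**
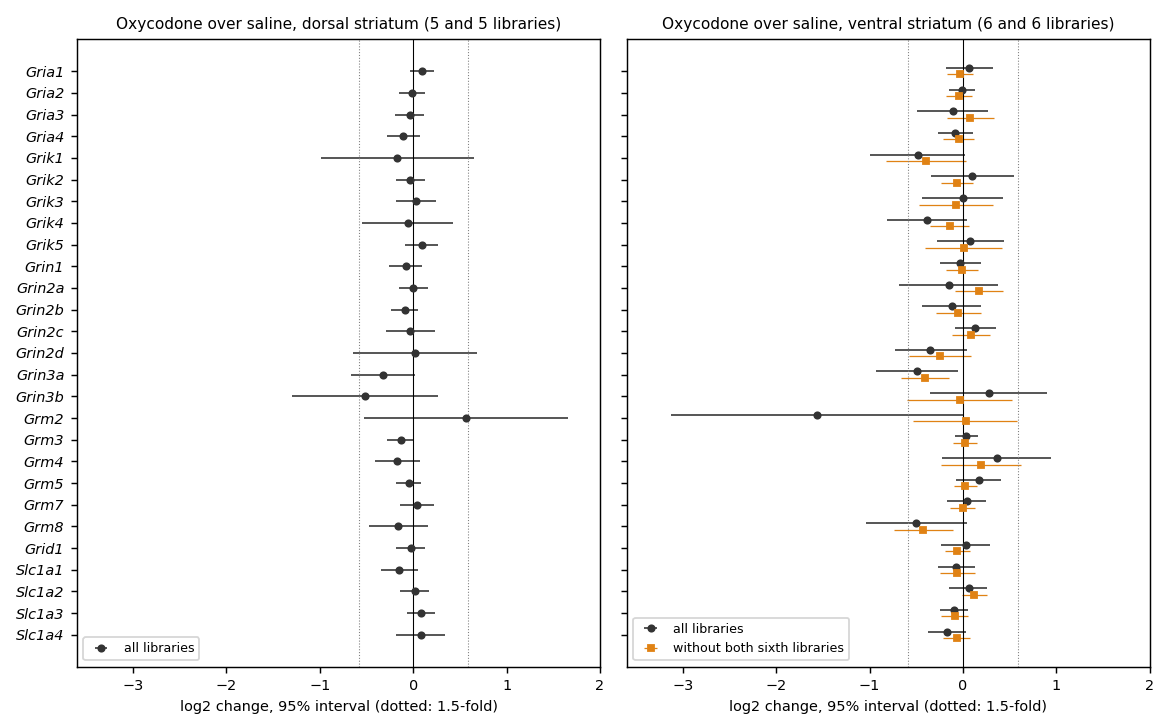
Log2 change of 27 members, oxycodone over saline, with 95% intervals from the edgeR fit, in dorsal striatum (left) and ventral striatum (right); dotted lines mark 1.5-fold, and orange squares show ventral fits without both sixth libraries. All dorsal intervals cover 0, and the ventral value of Grm2 moves to 0.03 without both sixth libraries, where it was -1.56 with them.

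A contrast over all 22 libraries asked whether the oxycodone effect differed between dorsal and ventral striatum. Of 14938 genes 0 passed (0%), with edgeR as with DESeq2 and limma-voom, and 0 of the 27 members. An unadjusted p under 0.05 was reached by 674 genes (4.51%) and by 1 member, Grm2, with a difference of 2.12 on the log2 scale (SE 0.99, p 0.0446, edgeR adjusted p 0.981). Without both sixth libraries the difference for Grm2 was 0.52 (SE 0.59), and 0 members had an unadjusted p under 0.05. The 95% interval of the difference lay within 1.5-fold for 16 of the 27 members, and for 20 without both sixth libraries.

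Dorsal and ventral striatum were compared within the oxycodone libraries and, separately, within the saline libraries, which share no library. Many genes differed. In oxycodone libraries 6785 of 14375 genes passed the threshold (47.2%; 23.5% higher and 23.7% lower in dorsal striatum), and in saline libraries 6616 of 14433 (45.8%; 23.6% higher and 22.3% lower). Of the 27 members 10 passed in oxycodone libraries, 5 higher and 5 lower in dorsal striatum, and 13 in saline libraries, 6 higher and 7 lower. The members' median log2 change was 0.04 in oxycodone and -0.05 in saline libraries, beside -0.01 over all genes in each. The shares called, 37% and 48.1%, lie below and near those of all genes, so the count is no result about the members as a group. When both sixth libraries were left out, 12 members passed in oxycodone libraries (44.4%, beside 47.5% of all genes) and 16 in saline libraries (59.3%, beside 50.7%).

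The same 8 members passed in both library sets with the same direction: Slc1a1, Grin2c and Grm5 were higher in dorsal striatum, and Grik1, Grin3a, Grik4, Grin2d and Grm7 were lower. They make up 80% of the members called in oxycodone libraries and 61.5% of those called in saline libraries. They are 29.6% of the 27 members, beside 36.6% of all genes tested in both. Without both sixth libraries 11 members passed in both sets, with Grin2a, Grin3b and Grid1 added, all higher in dorsal striatum. With a fold of at least 1.5 asked for besides the adjusted p, 4 members passed in oxycodone libraries (25.7% of all genes) and 6 in saline libraries (28.1% of all genes), with Grik1, Grik4 and Grin3a in both. The titles of 5 dorsal libraries carry a suffix of unstated meaning. When the dorsal libraries with and without it were each set against the ventral libraries, Slc1a1 and Grik1 passed in all 4 such fits, and each of the other 6 lost its call in at least 1. Groups that did not overlap were found for 2 members in oxycodone libraries, both higher in dorsal striatum (15.1% of all genes), and for 8 in saline libraries, 5 higher (16.3%) and 3 lower (14.1%).

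**Figure D3:**
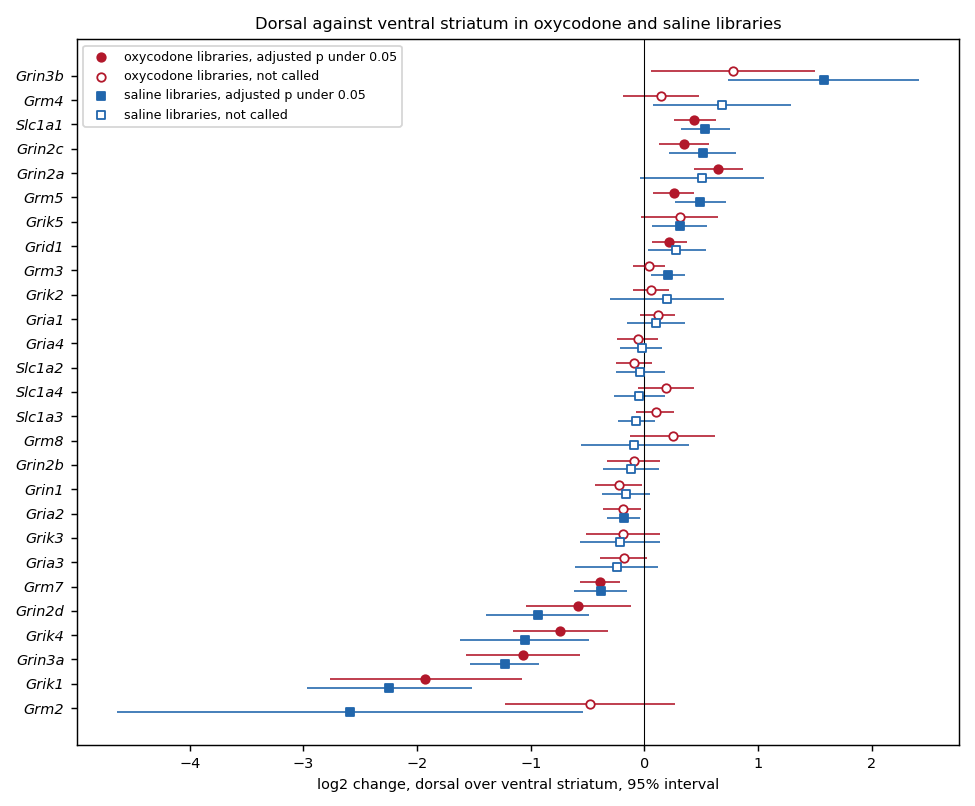
Log2 change of 27 members, dorsal over ventral striatum, with 95% intervals from the edgeR fits, in oxycodone libraries (red circles) and in saline libraries (blue squares); filled symbols passed an adjusted p of 0.05. Grik1, Grin3a, Grik4, Grin2d and Grm7 are filled on the lower side in both sets, and Slc1a1, Grin2c and Grm5 on the higher side.

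The stretches just upstream of 3 of these 8 genes are shown because the genes differed between regions in both sets and had a single RefSeq window near the annotated gene start. RefSeq windows of 300 bases (build GRCm38.p6) were matched by symbol for 19 of the 28 members and for 5 of the 8. Windows were shown where the RefSeq start lay within 200 bases of the GENCODE M21 gene start, cut to the bases upstream of both starts, which lay 122 bases apart for Grik4, 86 for Slc1a1 and 0 for Grin2c. They run 5′ to 3′ on the strand of the gene, and capitals mark the letters GGGCGG, the GC box, on either strand. Grik4 lies on the minus strand (chr9:42944494-42944621), as does Grin2c (chr11:115267244-115267493), and Slc1a1 on the plus strand (chr19:28834885-28835048).
Grik4: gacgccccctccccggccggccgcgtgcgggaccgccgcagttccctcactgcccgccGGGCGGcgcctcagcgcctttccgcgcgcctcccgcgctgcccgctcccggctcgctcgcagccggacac
Grin2c: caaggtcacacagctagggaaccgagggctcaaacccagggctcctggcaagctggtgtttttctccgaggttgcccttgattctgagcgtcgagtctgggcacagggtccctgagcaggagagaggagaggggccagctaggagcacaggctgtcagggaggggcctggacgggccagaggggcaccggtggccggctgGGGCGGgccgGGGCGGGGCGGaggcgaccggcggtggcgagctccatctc
Slc1a1: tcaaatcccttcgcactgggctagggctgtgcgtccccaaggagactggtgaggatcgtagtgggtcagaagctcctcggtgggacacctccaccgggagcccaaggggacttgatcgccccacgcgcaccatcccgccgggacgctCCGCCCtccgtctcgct

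The 128 bases of Grik4 held 23 CG dinucleotides, the 250 of Grin2c 15 and the 164 of Slc1a1 14. GC boxes were found in the windows of 12 of the 19 matched members (63.2%), beside 35.7% of all 32851 RefSeq windows of that length. Here and below a member counts if any of its windows has the letters (22 windows for the 19). The share beside it counts single windows, so the units differ. TATAAA, the TATA box, was in 2 of the 19 (10.5%, beside 13.6%), Grin3b and Slc1a3. The letters TGACG were in 5 (26.3%, beside 20.8%), CACGTG in 1 (5.26%, beside 7.15%) and the NRF1 motif in 1 (5.26%, beside 4.6%), each counted on both strands. Some of these letters can overlap where GC boxes abut, as in Grin2c. A match describes the letters of the window only.

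Slc1a1 had 85.2, 85.1, 88.4, 96.6 and 85.4 CPM in oxycodone dorsal libraries, against 53.7 to 70 CPM with a median of 65.2 in oxycodone ventral libraries. In saline libraries it had 99.1, 82.3, 108, 90.7 and 109 CPM in dorsal striatum, against 57 to 78.1 CPM with a median of 64.7 in ventral striatum. All dorsal libraries lay above all ventral ones in both sets. The log2 change was 0.44 (SE 0.09, edgeR adjusted p 0.00052) in oxycodone and 0.53 (SE 0.10, edgeR adjusted p 0.000581) in saline libraries. Slc1a1 (ENSMUSG00000024935, GRCm38 chromosome 19, 28835049 to 28913960) shares 31.86% of its exon bases with 4430402I18Rik on the opposite strand, and the strand setting of the counting is not given in the sources used here.

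Slc1a2 and Slc1a3 did not pass in either set, with log2 changes of -0.09 and 0.10 in oxycodone and -0.04 and -0.07 in saline libraries. Slc1a4 had 0.19 and -0.05. Slc1a1 was therefore the 1 transporter gene called between regions. Markers of astrocytes averaged 6.39 log2 CPM in oxycodone dorsal, 6.36 in saline dorsal, 6.15 in oxycodone ventral and 6.12 in saline ventral libraries. Of the 10 astrocyte markers, 4 passed as higher and 1 as lower in dorsal striatum in each set. Their median log2 change was 0.33 in oxycodone and 0.41 in saline libraries.

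Grin2c, the GluN2C subunit (ENSMUSG00000020734, chromosome 11, 115249169 to 115267243), had 61.5, 66, 71.6, 63.4 and 58.4 CPM in oxycodone dorsal libraries, against 39.5 to 58.9 CPM with a median of 50.3 in oxycodone ventral libraries. It had 82.8, 76, 44, 59.5 and 65.3 CPM in saline dorsal libraries, against 38.3 to 50.7 CPM with a median of 45.7 in saline ventral libraries. The dorsal libraries were mostly above the ventral ones, with overlap in both sets. Its log2 change was 0.35 (SE 0.10, edgeR adjusted p 0.0105) in oxycodone and 0.52 (SE 0.14, edgeR adjusted p 0.00663) in saline libraries.

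Grm5, the mGlu5 receptor of medium spiny neurons (ENSMUSG00000049583, chromosome 7, 87584168 to 88134907), had 829, 875, 854, 862 and 718 CPM in oxycodone dorsal libraries, against 599 to 796 CPM with a median of 665 in oxycodone ventral libraries. In saline libraries it had 929, 841, 852, 821 and 858 CPM in dorsal striatum, against 414 to 687 CPM with a median of 637 in ventral striatum. The saline sets did not overlap, and the oxycodone sets did. Its log2 change was 0.26 (SE 0.08, edgeR adjusted p 0.0187) in oxycodone and 0.49 (SE 0.10, edgeR adjusted p 0.00144) in saline libraries. Without both sixth libraries, of which oxycodone replicate 6 was the highest and saline replicate 6 the lowest ventral value, the changes were 0.33 and 0.42.

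The medium spiny neuron markers moved the same way as Grm5. They averaged 8.63 log2 CPM in oxycodone dorsal and 8.05 in oxycodone ventral libraries, and 8.69 in saline dorsal and 7.19 in saline ventral libraries. Leaving out both sixth libraries gave ventral means of 7.92 in oxycodone and 7.77 in saline libraries. Their summed level was 6647 to 7922 CPM in oxycodone dorsal and 3706 to 8221 CPM in oxycodone ventral libraries, and 7274 to 8071 CPM in saline dorsal and 479 to 4561 CPM in saline ventral libraries. Of the 12 markers, 5 passed in oxycodone and 6 in saline libraries, all higher in dorsal striatum. Their part in the Grm5 difference was not tested.

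Grik1 had the largest called log2 change of the members in oxycodone libraries, and the largest in saline libraries after Grm2. Grik1 (ENSMUSG00000022935, chromosome 16, 87895900 to 88290265) had 7.56, 11.9, 2.95, 3.73 and 4.81 CPM in oxycodone dorsal libraries, against 11.2 to 40.2 CPM with a median of 23.1 in oxycodone ventral libraries. It had 15.8, 4.05, 3.96, 6.38 and 5.05 CPM in saline dorsal libraries, against 26.6 to 41 CPM with a median of 32.3 in saline ventral libraries. The saline sets did not overlap, and in the oxycodone sets 1 dorsal library reached above the lowest ventral one, replicate 6. Its log2 change was -1.93 (SE 0.39, edgeR adjusted p 0.00149) in oxycodone and -2.25 (SE 0.33, edgeR adjusted p 0.000132) in saline libraries.

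Grin3a (ENSMUSG00000039579, chromosome 4, 49661611 to 49845744), whose dorsal values and ventral ranges are given above, fell by 1.07 (SE 0.23, edgeR adjusted p 0.00186) in oxycodone dorsal striatum relative to ventral, and by 1.23 (SE 0.14, edgeR adjusted p 6.78e-06) in saline libraries. In saline libraries every dorsal value, at most 34.3 CPM, lay below every ventral value, at least 53.3 CPM. In oxycodone libraries the dorsal values overlapped only with ventral replicate 6, at 22 CPM, and without it the change was -1.20. Grin2d, a GluN2D subunit known from interneurons (ENSMUSG00000002771, chromosome 7, 45831883 to 45878378), had 3.95 to 6.27 CPM in oxycodone dorsal and 4.4 to 9.23 CPM in oxycodone ventral libraries, and 3.69 to 6.17 CPM in saline dorsal and 7.91 to 12.9 CPM in saline ventral libraries. Its log2 change was -0.58 (SE 0.22, edgeR adjusted p 0.0366) in oxycodone libraries and -0.94 (SE 0.21, edgeR adjusted p 0.00217) in saline libraries. With 1 library left out at a time, the oxycodone call for Grin2d held 4 times in 11. Striatal interneuron markers (7 genes) went the other way by group mean of log2 CPM, but not by summed level. They averaged 5.32 log2 CPM in oxycodone dorsal, 4.97 in oxycodone ventral, 5.30 in saline dorsal and 4.74 in saline ventral libraries. Without both sixth libraries the ventral means were 4.93 in oxycodone and 4.94 in saline libraries. Their summed level was 318 to 395 CPM in oxycodone dorsal and 387 to 448 CPM in oxycodone ventral libraries. It was 319.8 to 376 CPM in saline dorsal and 296 to 448 CPM in saline ventral libraries, or 404 to 448 CPM without replicate 6. In oxycodone libraries 3 markers passed as higher and 1 as lower in dorsal striatum, and in saline libraries 1 each way. Their part in the Grin2d values was not tested.

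Grik4 (ENSMUSG00000032017, chromosome 9, 42518135 to 42944493) had 14.2, 18.2, 21.1, 14.4 and 18.6 CPM in oxycodone dorsal libraries, against 14.1 to 35.1 CPM with a median of 31.1 in oxycodone ventral libraries. In saline libraries it had 35.3, 15.8, 11.5, 14 and 14.1 CPM in dorsal striatum, against 31.5 to 51.2 CPM with a median of 34.7 in ventral striatum. Saline dorsal replicate 1 reached into the ventral range, and the other 4 saline dorsal libraries were below it. The log2 change was -0.74 (SE 0.20, edgeR adjusted p 0.00652) in oxycodone and -1.05 (SE 0.26, edgeR adjusted p 0.0047) in saline libraries. The same dorsal library, saline replicate 1, also had the highest dorsal value of Grik1.

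Grm7, an mGlu7 receptor of presynaptic active zones (ENSMUSG00000056755, chromosome 6, 110645581 to 111567230), had 204 to 261 CPM in oxycodone dorsal and 256 to 349 CPM in oxycodone ventral libraries. It had 185 to 264 CPM in saline dorsal and 212 to 327 CPM in saline ventral libraries. The lowest ventral value of each set was replicate 6. The log2 change was -0.39 (SE 0.09, edgeR adjusted p 0.00143) in oxycodone and -0.38 (SE 0.11, edgeR adjusted p 0.0114) in saline libraries.

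By group mean, markers of neurons found mainly outside the striatum moved in the same direction as the members that were lower in dorsal striatum. The 10 glutamatergic neuron markers averaged 2.47 log2 CPM in oxycodone dorsal and 3.55 in oxycodone ventral libraries, and 2.40 in saline dorsal and 3.79 in saline ventral libraries. The ventral means without both sixth libraries were 3.66 in oxycodone and 3.30 in saline libraries. The summed level of these markers was 69.6 to 207 CPM in oxycodone dorsal and 131 to 560.4 CPM in oxycodone ventral libraries, and 83.9 to 204 CPM in saline dorsal and 123 to 1768 CPM in saline ventral libraries. In oxycodone libraries 4 of the 10 passed and in saline libraries 5, all lower in dorsal striatum. Saline ventral replicate 6 was highest for these markers, at 6.22 log2 CPM, and lowest for medium spiny neuron markers, at 4.27 log2 CPM. That library had the lowest ventral value of Grm7, 212 CPM. Grik4 was highest there, at 51.2 CPM, and Grik1, Grin2d and Grin3a lay within the range of the other 5 saline ventral libraries. The part of glutamatergic neurons in the members' differences was not tested.

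Septal, preoptic and pallidal markers averaged 1.35 log2 CPM (1.09 to 1.62) in oxycodone dorsal and 1.76 (1.22 to 2.70) in oxycodone ventral libraries, and 1.54 (1.06 to 2.17) in saline dorsal and 2.06 (0.60 to 2.56) in saline ventral libraries. Their summed level was 21.6 to 28.7 CPM in oxycodone dorsal and 30.9 to 74.7 CPM in oxycodone ventral libraries, and 20.8 to 38.6 CPM in saline dorsal and 31 to 80.9 CPM in saline ventral libraries. Of those tested, 1 of 4 passed in oxycodone and 3 of 5 in saline libraries, all lower in dorsal striatum. Nkx2-1, a pallidal marker, was at 0 in saline ventral replicate 6. Oligodendrocyte markers went the other way, at 7.93 and 6.96 in oxycodone dorsal and ventral libraries and 7.92 and 6.43 in saline dorsal and ventral libraries. Oligodendrocyte precursor markers (3 genes) were lower in dorsal striatum by group mean. They averaged 5.95 and 6.13 in oxycodone dorsal and ventral libraries, and 5.87 and 6.19 in saline dorsal and ventral libraries. Of the 3, 1 passed in oxycodone and 2 in saline libraries, all lower in dorsal striatum. The part of these cells in the members' differences was not tested.

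**Figure D4:**
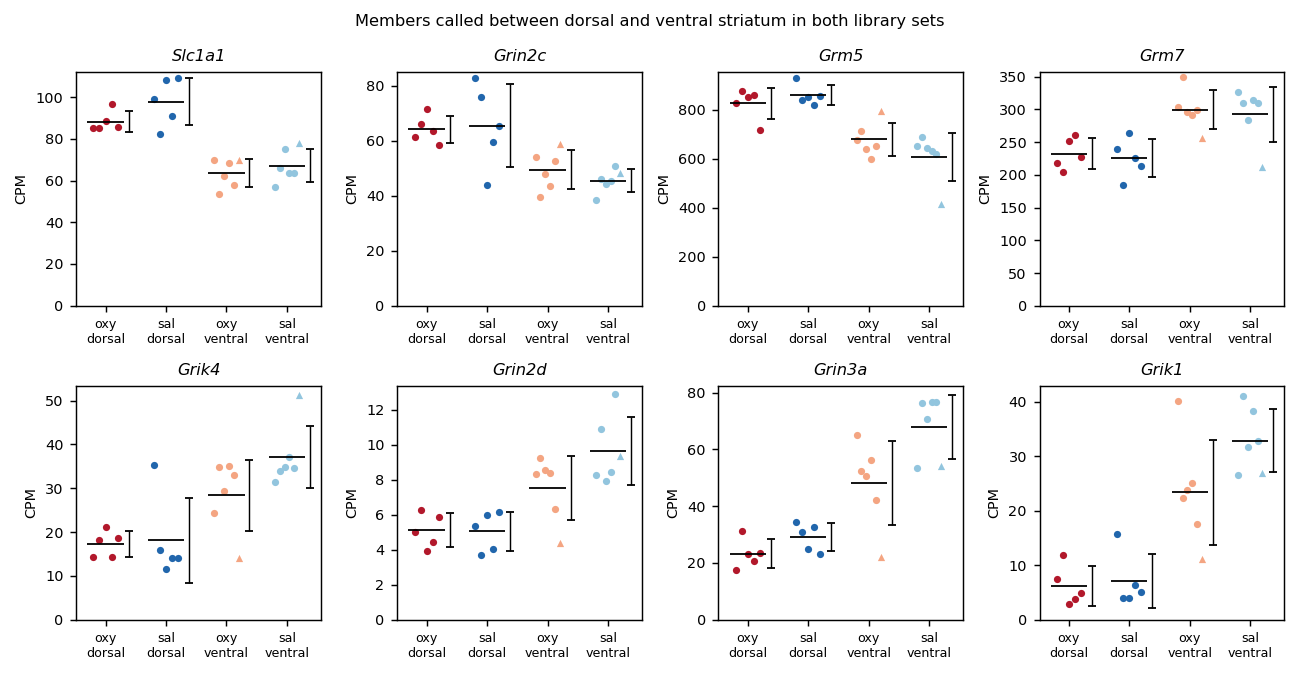
CPM in each library of the 8 members called between dorsal and ventral striatum in both library sets, with axes from 0; horizontal lines are group means, bars to their right are SD, and triangles mark the sixth ventral libraries. Slc1a1, Grin2c and Grm5 (top row) stand higher in dorsal than in ventral groups, and Grm7 and the 4 genes of the bottom row stand lower.

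The other 7 members called passed in 1 of the 2 sets. Grin2a passed in oxycodone libraries, at 240.0 to 272 CPM in dorsal against 131 to 209 CPM in ventral striatum, with no overlap and a log2 change of 0.65 (SE 0.10, edgeR adjusted p 6.92e-05). In saline libraries it had 222 to 287 CPM in dorsal and 123 to 358 CPM in ventral striatum, a change of 0.51 (SE 0.25, edgeR adjusted p 0.121). Without saline ventral replicate 6, which held the 358 CPM, the saline change was 0.84 (SE 0.08, edgeR adjusted p 2.08e-07). The difference between the oxycodone and saline sets is that of the contrast over all libraries, which did not pass for Grin2a.

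Grin3b passed in saline libraries, with 3.81 to 13.7 CPM in dorsal and 1.42 to 3.42 CPM in ventral striatum and a log2 change of 1.58 (SE 0.39, edgeR adjusted p 0.00424). In oxycodone libraries its change was 0.78 (SE 0.34, edgeR adjusted p 0.0684), and 0.99 (edgeR adjusted p 0.0267) without ventral replicate 6. Grin3b shares 32.13% of its exon bases with Tmem259 on the opposite strand, and reads of the 2 genes can be told apart only if the counting used strand. Grm2 passed in saline libraries with a log2 change of -2.59 (SE 0.93, edgeR adjusted p 0.0407), against -1.16 (edgeR adjusted p 0.0522) without ventral replicate 6. Its counts were low, down to 2 in saline dorsal replicate 3, and with 1 library left out at a time it passed 5 times in 11.

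Grik5, Grm3 and Gria2 passed in saline libraries with small changes. Grik5 had 0.31 (SE 0.16, edgeR adjusted p 0.122) in oxycodone and 0.31 (SE 0.11, edgeR adjusted p 0.0328) in saline libraries, the saline call holding 6 times in 11 with 1 library left out. Grm3 had 0.04 in oxycodone and 0.21 (SE 0.07, edgeR adjusted p 0.0212) in saline libraries, and its call was lost without saline ventral replicate 3 or 4. Gria2 had -0.19 (SE 0.08, edgeR adjusted p 0.0532) in oxycodone and -0.18 (SE 0.07, edgeR adjusted p 0.0385) in saline libraries, the saline call holding 4 times in 11. Grid1 passed in oxycodone libraries with 0.22 (SE 0.07, edgeR adjusted p 0.0202), beside 0.28 (SE 0.12, edgeR adjusted p 0.0674) in saline libraries. Without both sixth libraries it passed in both sets, with 0.22 and 0.20.

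Gria1, Gria3, Gria4, Grik2, Grin1, Grin2b, Slc1a2, Slc1a3 and Slc1a4 passed in neither set in the edgeR fits with all libraries or without both sixth libraries. With 1 other library left out, Grin1 passed without oxycodone ventral replicate 1 and Slc1a4 without oxycodone dorsal replicate 1. The log2 changes of these 9 genes with all libraries lay between -0.24 and 0.20. Grik3, Grm4 and Grm8 did not pass in the edgeR fits with all libraries and passed without a sixth library. In saline libraries Grik3 then had -0.31 (edgeR adjusted p 0.0193) and Grm4 had 0.52 (edgeR adjusted p 0.00418), and in oxycodone libraries Grm8 had 0.42 (edgeR adjusted p 0.0236). With all libraries in, limma-voom called Grik3 and Grm4 and DESeq2 called Grm4, each in saline libraries.

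Ratios between subunits within a library do not depend on its scaling factor, but they do depend on the exon lengths used. The ratio of Grin2a to Grin2b, in CPM per kb, was 0.512 ± 0.0359 in oxycodone dorsal, 0.478 ± 0.0316 in saline dorsal, 0.309 ± 0.0568 in oxycodone ventral and 0.299 ± 0.0705 in saline ventral libraries (SD, n = 5, 5, 6 and 6). Dorsal libraries ranged from 0.443 to 0.544. The ventral libraries lay below them, from 0.244 to 0.438, the highest being saline replicate 6, and saline ventral libraries without it averaged 0.271 ± 0.0197. The ratio of Gria1 to Gria2 was 1.83 ± 0.138 in oxycodone dorsal, 1.69 ± 0.0555 in saline dorsal, 1.47 ± 0.135 in oxycodone ventral and 1.38 ± 0.204 in saline ventral libraries. Dorsal values ran from 1.63 to 2.02 and ventral values from 0.984 to 1.67, with overlap. These ratios are descriptions of transcript levels and were not tested.

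**Figure D5:**
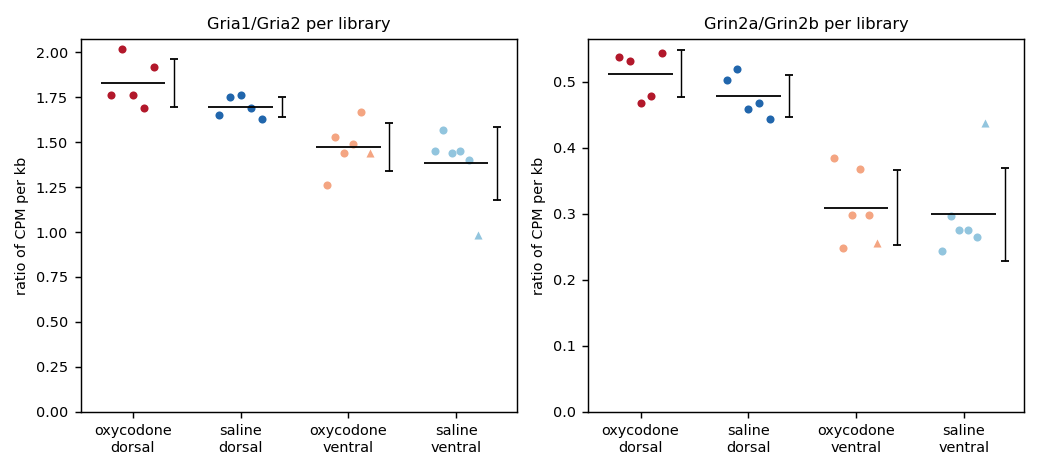
Ratio of Gria1 to Gria2 (left) and of Grin2a to Grin2b (right) in each library, from CPM per kb of exon, with axes from 0; lines are group means, bars SD, and triangles the sixth ventral libraries. Grin2a to Grin2b ratios are 0.443 to 0.544 in the 10 dorsal libraries and 0.244 to 0.438 in the 12 ventral libraries.

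Within a class, each subunit's share of the summed CPM per kb depends on the annotated exon length by which its CPM was divided. That length was 6043 bases for Gria1 and 15548 for Gria2, and 3049 for Grm3 and 10247 for Grm5. Gria1 made up 52.5% ± 1.35 of the AMPA sum in oxycodone dorsal, 50.3% ± 0.63 in saline dorsal, 47.5% ± 2.4 in oxycodone ventral and 45.3% ± 6.4 in saline ventral libraries (SD, n = 5, 5, 6 and 6). Grin1 made up 43.5% to 49.2% of the NMDA sum in the 4 group means, and Grik5 46.7% to 57.3% of the kainate sum. Grm3 made up 44.2% to 46% of the metabotropic sum. Slc1a2 made up 54.7% to 58.9% of the uptake sum, which also counts Slc1a4.

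Genes that serve these receptors were read from 6 lists: vesicular glutamate transporters (3 genes), AMPA and kainate auxiliary proteins (15), postsynaptic scaffolds and partners (21), cerebellins (4), glutamate and glutamine metabolism and transport (10), and metabotropic receptor coupling (9). In each list 0 genes passed for oxycodone against saline in dorsal striatum, in ventral striatum and in the contrast between them. The lowest unadjusted p values were 0.00397 for Cacng3, a TARP auxiliary subunit of AMPA receptors, in dorsal striatum (log2 change -0.60, SE 0.18, edgeR adjusted p 0.4) and 0.00169 for Cbln4, a secreted cerebellin, in ventral striatum (log2 change -0.94, SE 0.24, edgeR adjusted p 0.389). Slc38a3, the glutamine transporter of astrocytes, had -0.29 (SE 0.11, edgeR adjusted p 0.64) in dorsal and -0.16 (SE 0.06, edgeR adjusted p 0.467) in ventral striatum.

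Between regions 4 of the 6 lists held genes of both directions, and the vesicular transporters and cerebellins held called genes that were lower, with all libraries in, and none higher. The counts below stand beside 47.2% of all genes called in oxycodone and 45.8% in saline libraries. Of the 15 auxiliary protein genes, 3 were higher and 6 lower in dorsal striatum in oxycodone libraries, and 4 higher and 4 lower in saline libraries, with median log2 changes of -0.46 and -0.26. Gsg1l, an AMPA receptor auxiliary protein, averaged 42.9 ± 5.11 CPM in oxycodone dorsal, 49 ± 7.38 in saline dorsal, 17.3 ± 4.13 in oxycodone ventral and 13.5 ± 2.46 in saline ventral libraries (SD, n = 5, 5, 6 and 6). It rose by 1.28 (SE 0.15, edgeR adjusted p 3.58e-06) in oxycodone and by 1.85 (SE 0.14, edgeR adjusted p 2.36e-07) in saline dorsal libraries. Cnih2, a cornichon that accompanies AMPA receptors, rose by 0.85 (SE 0.10, edgeR adjusted p 4.75e-06) in oxycodone and by 0.93 in saline dorsal libraries (SE 0.10, edgeR adjusted p 4.73e-06). Neto1, an auxiliary protein of kainate receptors, was lower in oxycodone dorsal libraries, with a log2 change of -0.82 (SE 0.09, edgeR adjusted p 1.79e-06). Neto2 was higher in saline dorsal libraries, with 0.70 (SE 0.10, edgeR adjusted p 4.24e-05). Group means went the same way in the other set. Neto1 averaged 125 CPM in saline dorsal and 196 in saline ventral libraries, and Neto2 138 in oxycodone dorsal and 114 in oxycodone ventral libraries.

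Of the 21 scaffold genes, 4 were higher and 9 lower in oxycodone dorsal libraries, and 6 higher and 8 lower in saline dorsal libraries, with medians of -0.09 and -0.05. Shank2, a postsynaptic scaffold protein, averaged 51.3 ± 9.78 CPM in oxycodone dorsal, 48.8 ± 9.51 in saline dorsal, 173 ± 45.2 in oxycodone ventral and 187 ± 35 in saline ventral libraries (SD, n = 5, 5, 6 and 6), with log2 changes of -1.78 and -1.95. Dlgap4, another scaffold protein, had -1.12 in oxycodone and -1.07 in saline libraries. Camk2b, the beta chain of the calcium-calmodulin kinase, was higher in saline dorsal libraries, with a log2 change of 0.60 (SE 0.07, edgeR adjusted p 4.46e-06). Its means went the same way in oxycodone libraries, at 900.5 CPM in dorsal and 689 in ventral striatum.

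Of the 3 vesicular transporter genes, 1 passed in each set: Slc17a6, the VGLUT2 gene of thalamic and other subcortical glutamate neurons, was lower in dorsal striatum, with log2 changes of -2.18 in oxycodone and -2.27 in saline libraries. It had 0.667 to 3.73 CPM in oxycodone dorsal and 3.76 to 26 CPM in oxycodone ventral libraries, and 0.863 to 3.2 CPM in saline dorsal and 7.59 to 15.6 CPM in saline ventral libraries. Without both sixth libraries Slc17a8, the VGLUT3 gene, also passed in oxycodone libraries, higher in dorsal striatum. Cbln4 was lower in dorsal striatum, with log2 changes of -2.07 in oxycodone and -1.71 in saline libraries. Cbln1, which bridges delta receptors to neurexins, was lower in saline libraries, with -2.07. Levels of both were low. Cbln1 had 0 to 1.05 CPM in saline dorsal and 0.849 to 3.35 CPM in saline ventral libraries. Cbln4 had 0.333 to 1.51 CPM in oxycodone dorsal and 1.61 to 5.45 CPM in oxycodone ventral libraries. In saline libraries Cbln4 had 0 to 4.03 CPM in dorsal and 5.85 to 7.66 CPM in ventral striatum. Of the 9 coupling genes, 4 were higher and 4 lower in oxycodone libraries, and 5 higher and 4 lower in saline libraries. Itpr1, the calcium release channel that acts downstream of mGlu5, averaged 4366 ± 243 CPM in oxycodone dorsal, 4305 ± 199 in saline dorsal, 2315 ± 679 in oxycodone ventral and 1758 ± 374 in saline ventral libraries (SD, n = 5, 5, 6 and 6), and rose by 1.28 (SE 0.11, edgeR adjusted p 8.48e-07) in saline dorsal libraries. Gnai1, an inhibitory G protein subunit, was lower, with log2 changes of -0.83 in oxycodone and -1.05 in saline libraries. Got2, the mitochondrial aspartate aminotransferase that makes glutamate, was higher, with 0.45 and 0.53, 1 of 2 higher genes in each set among the 10 of its list.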

How the data were processed

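RNA-seq was done on 22 libraries of mouse striatum with a stranded total-RNA kit and removal of ribosomal RNA, per the labels. The authors deposited a table of raw read counts per Ensembl gene (23119 genes, whole numbers). CASAVA 1.8.2, STAR 2.3 and featureCounts are named in the submitters' processing notes, with the builds mm10, GRCm38 and mm9 and no role for each. Strand setting and treatment of read mates are not given in the sources used here. Symbols, exon lengths and coordinates came from GENCODE M21 (GRCm38) and matched 22282 genes (96.4%).

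Counts were tested with edgeR 4.0.16 in R 4.3.3, using TMM factors, filterByExpr, a robust quasi-likelihood fit within the groups compared (all 22 libraries for the contrast between regions) and Benjamini-Hochberg adjustment over all genes tested, with a threshold of 0.05. DESeq2 1.42.0, limma-voom (limma 3.58.1), other scaling factors, no filter, left-out libraries, lane and title suffix were alternatives, and the fits were tested on simulated data. The named genes are all 28 members and, from each list, at most 3 genes that passed, by lowest p, or else the 1 with the lowest p. Members and lists were chosen with earlier results of these data known.

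Of the ventral libraries 8 were in lane 1 and 4 in lane 2. The titles of 5 dorsal libraries carry a suffix of unstated meaning, and 2 title numbers each occur on 2 dorsal libraries of the same treatment. No pair of libraries within a group agreed within sampling noise (50 pairs, lowest chi-square per degree of freedom 2.88).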

Additional observations from a re-analysis of the deposited data

Results flagged for a closer look

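In 15 of 108 sets of values (a gene in a group) the highest or lowest library lay far from the rest by Dixon's criterion, where chance gives about 5.4. Of the 15, 11 were in saline ventral replicate 6, the library with the lowest medium spiny neuron markers and the highest glutamatergic markers.

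The high values in that library were Gria3 at 483 CPM (next 313), Grik4 at 51.2 (next 37.2), Grin2a at 358 (next 160.1), Grin2b at 1131 (next 808), Grm2 at 57.9 (next 7.34), Grm8 at 55.9 (next 32.5) and Slc1a2 at 1627 CPM (next 1262). The low values were Gria1 at 428 CPM (next 687), Grik2 at 102 (next 266), Grm5 at 414 (next 619) and Grid1 at 90.2 CPM (next 149).

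In saline dorsal replicate 1, Grik1 stood at 15.8 CPM (next 6.38) and Grik4 at 35.3 CPM (next 15.8), both high. Grin2b was low in oxycodone ventral replicate 1, at 500.1 CPM (next 728). Slc1a4 was low in oxycodone dorsal replicate 1, at 40.4 CPM (next 54.9).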

How the results depend on the processing

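For oxycodone against saline, 0 members passed in dorsal striatum, in ventral striatum and in the contrast between them under every alternative run, with 1 library left out and otherwise. Between regions, 9 to 12 members passed in oxycodone libraries and 10 to 16 in saline libraries with 1 library left out. The other alternatives gave 4 to 13 and 6 to 16. The lowest counts came from an added fold of at least 1.5, chosen after seeing the data (4 in oxycodone and 6 in saline libraries), and from the dorsal libraries with the title suffix alone in saline mice (6); fewer libraries entered the suffix fit. In oxycodone mice the dorsal libraries without the suffix alone gave 7, with Grik4, Grin2c, Grin2d and Grin3a not passing. For single members, 3045 alternatives stayed on the same side of the threshold, 55 lost the call, 32 gained one and 0 reversed a call. Members that were not called could change sign between fits, as Gria3 and Grin2a did in ventral striatum without both sixth libraries.

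Over all genes, DESeq2 and limma-voom called 38 and 61 ventral genes for oxycodone, where edgeR called 0. DESeq2 called 86 dorsal genes where edgeR called 30, and leaving out 1 dorsal library gave 1 (without saline replicate 5) to 63 (without oxycodone replicate 3). With the title number as a replicate block, 13 members passed in oxycodone and 11 in saline libraries, and 0 in the contrast between regions. Calls gained with it were Grik5, Grm8 and Gria2 in oxycodone and Grin2a and Grm4 in saline libraries. Saline calls lost with it were Grik5, Grm3, Grm2 and Gria2, and no oxycodone call was lost. Same-numbered libraries correlated at -0.08 to 0.31 over 10 pairs, and 2 of 10 correlated best with their own number. Libraries of the same treatment and unlike number correlated at -0.21 to 0.16. In both regions odd title numbers belong to oxycodone and even ones to saline libraries. The correlations compare different tissues and cannot decide whether same-numbered libraries share an animal. The main fits therefore did not pair libraries by number. No paired analysis was possible within a region because oxycodone and saline libraries share no title number. For oxycodone in dorsal striatum, the 95% intervals of Grik1, Grin2d, Grin3a, Grin3b and Grm2 include changes of 1.5-fold.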
